A study of Mus musculus with 80 samples.

Results

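The genes described here encode translation initiation factors (eIF genes) and translation elongation factors (eEF genes), measured in whole mouse kidney at 4 stages from juvenile to old age. Members were all cDNA clones whose platform entry held exactly 1 gene symbol beginning with Eif or Eef and a digit, with the sex-linked genes Eif2s3x and Eif2s3y left out. The rule used names only and no measured value. It gave 91 of the 16896 clones on the arrays, for 46 genes: 50 clones of 28 genes on filter set A and 41 clones of 31 genes on filter set B, with 13 genes on both. A single clone stood for 25 of the genes, and the other 21 had several, up to 7 each for Eif3a and Eef1g. A further 21 clones carried an eIF or eEF symbol together with another symbol and were left out. The rule therefore leaves Eef2 without a value and, among the other core factors listed, Eif1, Eif2ak2, Eif2s1, Eif4a2, Eif4a3, Eif4ebp2, Eif4g1, Eif5b, Eef1a2 and Eef1d, which no clone carried as its only symbol.

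The animals were 40 C57BL/6 mice, an inbred laboratory strain, given regular feed freely until they were killed. Both sexes were sampled at 17 to 44, 169 to 194, 476 to 499 and 704 to 743 days of age, with 5 mice in each of the 8 groups of sex and age and 1 kidney RNA sample per mouse. No allele, drug or restricted diet is named for any group. The youngest group joined 5 mice of 17 to 21 days with 5 of 33 to 44 days. The titles carry serial numbers that fall into 5 blocks, and every block pairs 1 male with 1 female at each of the 4 ages. These blocks are called rounds of arrays here, although the labels do not explain them.

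Each mouse was hybridised to 2 nylon filters, set A and set B, with radioactively labelled cDNA. Values are z scores, so a value counts how many SDs of its own array a clone lay from the array mean, and differences are given in array SDs. The scale before the z transformation is not known, so no difference can be read as a fold, and the level of a clone is not compared with that of another clone. Arrays correlated on average at 0.888 to 0.965 with the rest of set A and at 0.915 to 0.975 with the rest of set B, and the number of mice limits the precision. Of the proximal tubule markers, 4 of 11 were on the arrays with a name of their own (Cubn, Gatm, Lrp2 and Miox). Calb1 of the distal tubule, Car2 and Slc4a1 of the collecting duct, and Podxl and Wt1 of the podocyte were also present, while no adipocyte or skeletal muscle marker was. Among all the kidney, blood, immune, adrenal and liver marker clones, 1 passed the test in any comparison, a clone of the adrenal gene Hsd3b1 between the sexes. The age slope was above 0 for 5 of 5 proximal tubule clones (median 0.0380 array SDs per year), 3 of 3 endothelial clones (0.0315), 3 of 3 immune clones (0.0703) and 2 of 14 blood clones of 3 genes (-0.0400). It was above 0 for 3 of 4 loop and distal tubule clones (0.00451), 0 of 3 collecting duct clones (-0.0109) and 1 of 2 podocyte clones (-0.0465). The same held for 3 of 4 adrenal clones (0.0403) and 1 of 3 liver clones (-0.00859), against 50.3% of all clones. Their part in the results on translation factors was not tested. In whole kidney, fewer cells of a type and less RNA per cell cannot be told apart.

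As background, translation starts when eIF2 carries the initiator tRNA to the small ribosomal subunit, helped by eIF1, eIF1A and the many-subunit scaffold eIF3. The eIF4 factors bind the cap of the mRNA and unwind it, eIF5 and eIF5B let the large subunit join, and the eEF1 and eEF2 factors then deliver aminoacyl-tRNA and move the ribosome along. Cells slow the process mainly at 2 points: kinases phosphorylate eIF2 so that its exchange factor eIF2B no longer recycles it, and the 4E-binding proteins hold the cap-binding protein eIF4E away from its partners. Tubule cells of the kidney make large amounts of transport protein with this machinery. Much of its control lies in phosphorylation of the proteins, which RNA arrays do not measure.

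Many mRNAs of the translation machinery begin with a C followed by a run of pyrimidines (C or T), the terminal oligopyrimidine tract through which mTOR signalling sets their translation. The sequence around the start of transcription is therefore shown for some of the genes described below, beside the only member whose tabulated start had such a tract. Others with tabulated starts, such as Eef2k, are not shown, nor is a further tabulated start of Eif4e. RefSeq's table for GRCm38.p6 held start regions for 34 of the 46 genes. Each window below runs 5′ to 3′ on the gene's own strand, 15 bases before the start and 15 bases from it, with the start base, or the whole tract, in capitals.

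Eif3f, chr7:108934400-108934429, plus strand: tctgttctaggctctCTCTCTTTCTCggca
Eef1a1, chr9:78481710-78481739, minus strand: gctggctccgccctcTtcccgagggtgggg
Eef1b2, chr1:63176816-63176845, plus strand: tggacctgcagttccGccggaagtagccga
Eif4a1, chr11:69672409-69672438, minus strand: acaaagtaacgtcacGtcgagttgcagagc
Eif4e, chr3:138526176-138526205, plus strand: tgctaaaacagcagcGgaggcggagggagc
Eif2b5, chr16:20498802-20498831, plus strand: ccttcctctttctctCcctgcaactacacc

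A tract was counted where the tabulated start base was C and at least 4 pyrimidines followed it on the transcribed strand, and no other motif was searched. This held for 1 of 49 tabulated starts of the members (2.04%) and for 823 of 32851 starts of all genes (2.51%). Eef1a1 is a textbook example of such an mRNA, but its tabulated start base is a T, and a tract a base or more away from a tabulated start was not counted. The absence of these letters at the other starts says nothing of how those mRNAs are translated.

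No translation factor clone passed the test in any comparison. At an adjusted p under 0.05 (limma, Benjamini-Hochberg adjustment over all 16896 clones), 0 of 91 were called for the age slope, the share over all clones being 0%. Likewise 0 of 91 were called for 169 to 194 minus 17 to 44 days (0% of all clones), for 704 to 743 minus 169 to 194 days (0%), for male minus female (0.107% of all clones, 18 in number; 0.0710% higher and 0.0355% lower in males) and for the sex by age test, which asks whether the sex difference is the same at all 4 ages (0%). At an unadjusted p under 0.05, 8 of 91 clones passed for the age slope against 5.20% of all clones, 7 with higher values at older ages (3.04% of all clones) and 1 with lower (2.16%). The same count was 2 for 169 to 194 minus 17 to 44 days against 5.08%, with 0 higher (2.44% of all clones) and 2 lower (2.65%). It was 1 for 704 to 743 minus 169 to 194 days against 2.36%, with 1 higher (1.09%) and 0 lower (1.26%). It was 4 for male minus female against 4.48%, with 1 higher (1.76%) and 3 lower (2.72%) in males, and 3 for the sex by age test against 3.23%. Apart from the age slope, these shares of the members are near or below the background. For the age slope the members' share was 8.79%, above the background, and the count moved with single mice and with the settings. Leaving out 1 mouse at a time gave 4 to 11 clones, leaving out the 5 mice with outlying arrays gave 4, and array weights gave 12. The mice whose removal moved that count by over 1.5 times were the 17 to 44 day males of replicates 1, 4 and 5 and female of replicate 5, the 169 to 194 day female of replicate 2, the 476 to 499 day males of replicates 3 and 4, the 704 to 743 day male of replicate 2 and the 704 to 743 day females of replicates 1 and 3.

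**Figure D1:**
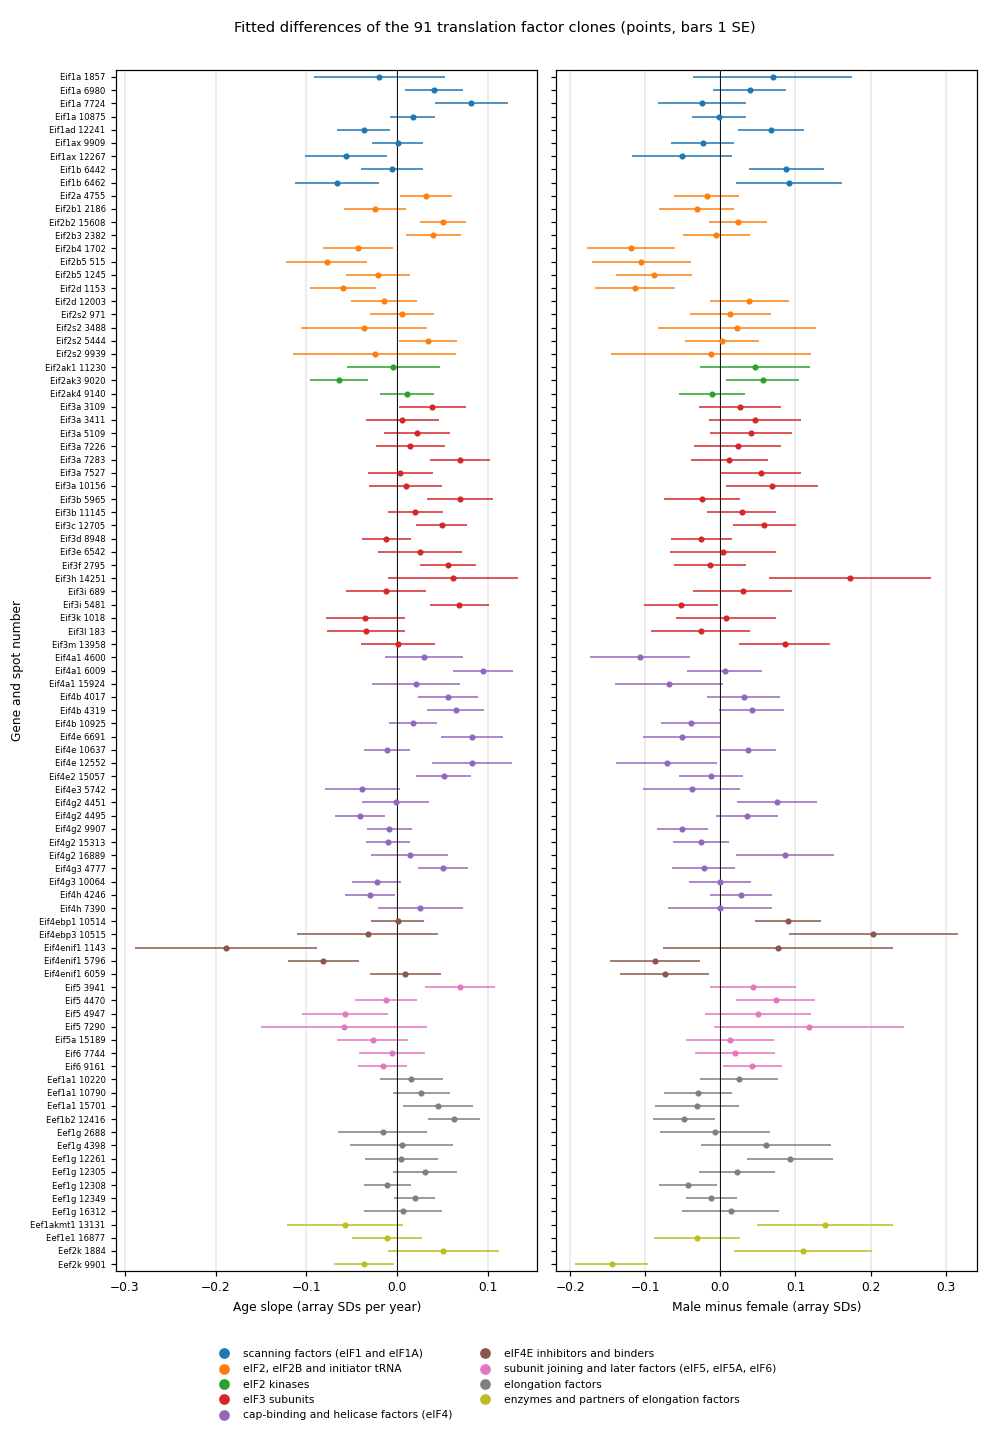
Fitted differences of all 91 translation factor clones, 1 row per clone labelled by gene and spot number, in array SDs per year for the age slope (left) and in array SDs for male minus female (right), with bars of 1 standard error and colours by role. Points lie on both sides of 0 in both panels, and none passed an adjusted p of 0.05.

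The fitted differences of the members were small and lay on both sides of 0. Per year of age, 50 clones had a slope above 0 and 41 below, with a median of 0.00489 array SDs against 0.000255 over all clones, and a range of -0.189 to 0.0948. From 17 to 44 to 169 to 194 days, 56 clones were above 0 (61.5%, against 51.0% of all clones), with a median of 0.0176 against 0.00220. From 169 to 194 to 704 to 743 days, 49 clones were above 0, with a median of 0.00721 against 0.000988. In males minus females, 51 clones were above 0, with a median of 0.0126 against -0.00117. These medians are descriptions and carry no test.

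The intervals show how large a difference the main fit to these 40 mice could have hidden. That fit had no term for the round, so differences between rounds stay in its error. With such a term the lowest adjusted p of a member for the age slope was 0.638 in place of 0.937 (limma). For the age slope, the 95% interval included 0 for 83 of 91 clones and lay wholly within 0.2 array SDs per year of 0 for 87. It reached a median of 0.0733 array SDs per year to either side of the estimate. For male minus female, 69 of 91 intervals lay within 0.2 array SDs, with a median reach of 0.108 to either side. For the steps between age groups the reach was 0.152, and 43 clones from 17 to 44 to 169 to 194 days and 41 clones from 169 to 194 to 704 to 743 days lay within 0.2. The median residual SD of a member was 0.168 array SDs (0.106 to 0.486) against 0.174 over all clones. Slopes of more than 0.2 array SDs per year are thus outside the interval for most members. The steps between age groups are not per year, so their bound is not the same size. There the intervals of more than 40 clones extend past 0.2 array SDs.

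Among the cap-binding and helicase factors of the eIF4 group, 12 of 20 clones (8 genes) had a slope above 0, with a median of 0.0191 array SDs per year, and none passed. Eif4a1 encodes the RNA helicase that unwinds the leader of the mRNA, and its spot 6009 had the smallest p of any member for age. It measured 0.280 ± 0.144 (SD, n = 10; lowest -0.0607, median 0.321, highest 0.423) at 17 to 44 days and 0.317 ± 0.122 (0.121, 0.357, 0.464) at 169 to 194 days. At 476 to 499 days it measured 0.417 ± 0.198 (0.0757, 0.473, 0.669), and at 704 to 743 days 0.454 ± 0.117 (0.298, 0.483, 0.650). The 4 age groups overlapped widely, and the lowest mouse of the oldest group lay below the median of each younger group. The slope was 0.0948 ± 0.0330 (SE) array SDs per year, with an interval of 0.0284 to 0.161, an unadjusted p of 0.00619 and an adjusted p of 0.937 (limma). It was above 0 in 5 of 5 rounds, from 0.0410 to 0.153. From 169 to 194 to 704 to 743 days the same clone differed by 0.136 ± 0.0706 (unadjusted p = 0.0608, adjusted p = 1.00, limma), with the older mouse higher in 8 of 10 pairs of the same sex and round. Both other Eif4a1 clones also had slopes above 0, but smaller than their errors, at 0.0299 ± 0.0430 (spot 4600) and 0.0204 ± 0.0484 (spot 15924).

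Eif4e encodes the cap-binding protein itself. Its spot 6691 measured 0.486 ± 0.116 (SD, n = 10; lowest 0.255, median 0.505, highest 0.638) at 17 to 44 days and 0.594 ± 0.183 (0.169, 0.606, 0.867) at 169 to 194 days. It then measured 0.646 ± 0.134 (0.456, 0.600, 0.902) at 476 to 499 days and 0.660 ± 0.171 (0.452, 0.623, 1.04) at 704 to 743 days. The groups overlapped, and the youngest had the lowest median. The slope was 0.0827 ± 0.0339 array SDs per year (unadjusted p = 0.0189, adjusted p = 0.937, limma), above 0 in 5 of 5 rounds. Spot 12552 gave the same slope with a larger error, 0.0827 ± 0.0443, whereas spot 10637 gave -0.0112 ± 0.0254.

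Eif4b encodes a protein that stimulates the eIF4A helicase. Its spot 4319 measured -0.595 ± 0.123 (SD, n = 10; lowest -0.767, median -0.628, highest -0.380) at 169 to 194 days and -0.465 ± 0.136 (-0.646, -0.468, -0.238) at 704 to 743 days. The difference was 0.130 ± 0.0612 (unadjusted p = 0.0396, adjusted p = 1.00, limma), above 0 in 5 of 5 rounds and in 7 of 10 pairs of mice, and the groups overlapped. Its other clones differed over the same step by 0.0819 ± 0.0680 (spot 4017) and -0.00160 ± 0.0566 (spot 10925). The age slope of spot 4319 was 0.0645 ± 0.0314 array SDs per year (unadjusted p = 0.0463, adjusted p = 0.937, limma), above 0 in 5 of 5 rounds. Its other clones had slopes of 0.0561 ± 0.0326 (spot 4017) and 0.0178 (spot 10925). The same spot 4319 had the smallest p of any member in the sex by age test (F = 3.29, unadjusted p = 0.0304, adjusted p = 1.00, limma). Males were lower than females at 17 to 44 days (-0.619 ± 0.117 against -0.521 ± 0.107, n = 5 each) and at 704 to 743 days (-0.510 ± 0.0983 against -0.420 ± 0.163). They were higher at 169 to 194 days (-0.507 ± 0.106 against -0.683 ± 0.0585) and at 476 to 499 days (-0.402 ± 0.125 against -0.582 ± 0.180).

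Of the other eIF4 genes, Eif4e2, which encodes a cap-binding protein that represses rather than drives translation, measured 0.465 ± 0.219 (SD, n = 10; lowest -0.0871, median 0.524, highest 0.670) at 17 to 44 days and 0.577 ± 0.0944 (0.410, 0.593, 0.700) at 169 to 194 days. The difference was 0.112 ± 0.0605 (unadjusted p = 0.0719, adjusted p = 0.933, limma) and 0.0551 without the 17 to 44 day male of replicate 1, the lowest mouse. It was 0.207 without the 5 mice of 17 to 21 days, 0.0498 without the mice with outlying arrays and 0.0694 with array weights. Eif4g2 encodes a relative of the eIF4G scaffold that does not bind eIF4E. Its spot 4451 went the other way, from -0.0384 ± 0.200 (-0.237, -0.0974, 0.345) to -0.209 ± 0.159 (-0.535, -0.160, -0.0198), a difference of -0.171 ± 0.0748 (unadjusted p = 0.0280, adjusted p = 0.933, limma). Only 5 of 10 pairs of mice and 3 of 5 rounds showed that direction, and the difference was -0.0773 without the mice with outlying arrays and -0.0919 with array weights. The 4 other Eif4g2 clones differed by -0.0208 to 0.0520 over the same step. For Eif4g3, the clones' slopes were 0.0508 ± 0.0277 (spot 4777) and -0.0226 ± 0.0267 (spot 10064).

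**Figure D2:**
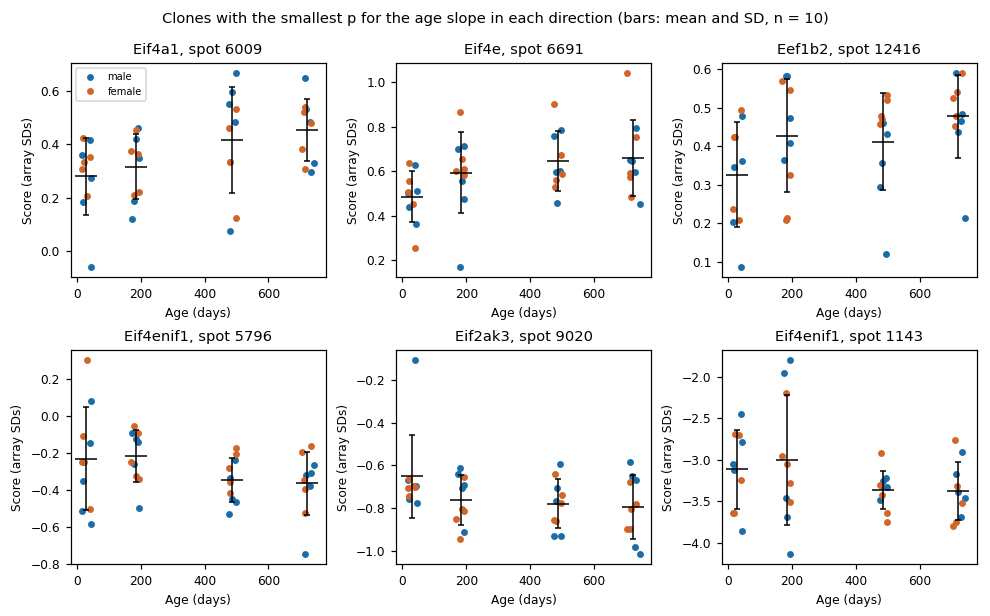
Scores in array SDs of each of the 40 mice against age in days for the clones with the smallest unadjusted p for the age slope in each direction, coloured by sex, with the mean and SD of each age group (n = 10). Slopes run from -0.189 to 0.0948 array SDs per year, and mice of different ages overlap in each panel.

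The eIF3 complex, the scaffold on the small subunit, was covered by 19 clones of 11 genes, and 15 of the 19 had a slope above 0 (50.3% of all clones did), with a median of 0.0201 array SDs per year. None passed the adjusted test, and since 7 of the 19 clones were of Eif3a, the clones are not separate genes. Eif3a encodes the largest subunit. All 7 of its clones had slopes above 0, from 0.00361 to 0.0693 array SDs per year, and all 7 were higher in males, by 0.0121 to 0.0687, with 1 of these 14 differences (the slope of spot 7283, 0.0693 ± 0.0335) at an unadjusted p under 0.05. The step from 169 to 194 to 704 to 743 days was above 0 for 6 of the 7 clones. Its largest value was at spot 3109, which measured -1.56 ± 0.211 (SD, n = 10; lowest -1.90, median -1.51, highest -1.22) and then -1.43 ± 0.185 (-1.72, -1.40, -1.18). That difference was 0.126 ± 0.0782 (unadjusted p = 0.116, adjusted p = 1.00, limma), and the clone lies in the dimmest 25% of its set. The other 6 clones gave -0.0541 to 0.0689 over that step. Over the 40 mice, the Pearson r between Eif3a clones ran from -0.352 (spots 5109 and 7527) to 0.469 (spots 7527 and 10156).

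Eif3m, a smaller subunit, measured -0.854 ± 0.149 (SD, n = 10; lowest -1.07, median -0.861, highest -0.587) at 17 to 44 days and -0.699 ± 0.295 (-1.03, -0.730, 0.0704) at 169 to 194 days. The difference of 0.155 ± 0.0855 (unadjusted p = 0.0777, adjusted p = 0.933, limma) had the same direction in 9 of 10 pairs of mice. It was 0.0689 without the 169 to 194 day male of replicate 4, the highest mouse, and 0.0600 without the mice with outlying arrays. The clone lies in the dimmest 25% of its set. Eif3b binds the scaffold's core, and its spot 5965 had the next smallest p in the sex by age test after Eif4b (F = 3.16, unadjusted p = 0.0353, adjusted p = 1.00, limma). Males of 17 to 44 days measured -0.178 ± 0.214 and females 0.0675 ± 0.140 (n = 5 each). At 476 to 499 days the order was the opposite, 0.161 ± 0.143 in males and -0.0260 ± 0.154 in females, and at the other ages the sexes differed by less than their SDs. The other Eif3b clone, spot 11145, had a slope of 0.0201 ± 0.0303. The single clones of Eif3e and Eif3h had slopes of 0.0256 ± 0.0461 and 0.0617 ± 0.0717, and Eif3f, whose start carries the pyrimidine tract shown above, had 0.0565 ± 0.0309 (unadjusted p = 0.0741). Those of Eif3d, Eif3k and Eif3l had slopes below 0, at -0.0118 ± 0.0269, -0.0349 ± 0.0440 and -0.0345 ± 0.0431. The Eif3h clone lies in the dimmest 25% of its set. For Eif3i the clones differed in sign. Spot 5481 had a slope of 0.0685 ± 0.0326 (unadjusted p = 0.0415, adjusted p = 0.937, limma), above 0 in 5 of 5 rounds, and spot 689 one of -0.0120 ± 0.0438.

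The next factors are those that bring the initiator tRNA. For eIF2, its exchange factor eIF2B and the tRNA-binding factors Eif2a and Eif2d, 5 of 13 clones (8 genes) had a slope above 0, with a median of -0.0210 array SDs per year, and 5 of 13 were higher in males. None passed. Eif2b5 encodes the catalytic subunit of eIF2B, and its spot 1245 measured 1.45 ± 0.129 (SD, n = 10; lowest 1.21, median 1.48, highest 1.60) at 17 to 44 days. It measured 1.31 ± 0.117 (1.12, 1.33, 1.47) at 169 to 194 days, 1.31 ± 0.225 (0.816, 1.40, 1.55) at 476 to 499 days and 1.39 ± 0.132 (1.21, 1.37, 1.62) at 704 to 743 days. The first step was -0.148 ± 0.0717 (unadjusted p = 0.0459, adjusted p = 0.933, limma), and the older mouse was lower in 10 of 10 pairs of the same sex and round. Without the 5 mice of 17 to 21 days it was -0.0666, and the other Eif2b5 clone, spot 515, differed by 0.00492 ± 0.0931.

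Eif2b1, a regulatory subunit that senses phosphorylated eIF2, measured 0.149 ± 0.171 (SD, n = 10; lowest -0.156, median 0.163, highest 0.397) at 17 to 44 days and 0.278 ± 0.140 (0.00575, 0.281, 0.484) at 169 to 194 days. In the oldest group it measured 0.154 ± 0.0952 (-0.0279, 0.146, 0.296). Both steps, 0.129 ± 0.0706 (unadjusted p = 0.0749) and -0.124 ± 0.0706 (unadjusted p = 0.0872), share the 169 to 194 day mice, and neither passed (adjusted p = 0.933 and 1.00, limma). Without the 5 mice of 17 to 21 days the earlier step was 0.0772, and without the mice with outlying arrays 0.0841. Eif2b2 and Eif2b3, other eIF2B subunits, had slopes of 0.0507 ± 0.0254 (unadjusted p = 0.0523) and 0.0398 ± 0.0302. Eif2s2, the beta subunit of eIF2, had 4 clones with slopes from -0.0367 to 0.0338.

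Between the sexes, the eIF2B subunits Eif2b4 and Eif2b5 and the factor Eif2d had lower mean values in males, and none passed the adjusted test. Eif2b4 measured -0.571 ± 0.187 (SD, n = 20; lowest -0.874, median -0.573, highest -0.210) in males and -0.452 ± 0.174 (-0.787, -0.395, -0.186) in females. The difference was -0.119 ± 0.0587 (unadjusted p = 0.0491, adjusted p = 0.982, limma), with the male lower in 12 of 20 pairs of the same age group and round. Both Eif2b5 clones differed in that direction, by -0.105 ± 0.0658 (spot 515) and -0.0881 ± 0.0507 (spot 1245). Eif2d, which can place tRNA on the ribosome without GTP, measured 0.105 ± 0.153 (-0.250, 0.128, 0.265) in males and 0.219 ± 0.184 (-0.119, 0.201, 0.589) in females at spot 1153. That difference was -0.114 ± 0.0532 (unadjusted p = 0.0382, adjusted p = 0.982, limma), below 0 in 5 of 5 rounds and in 12 of 20 pairs, but the other Eif2d clone, spot 12003, gave 0.0382 ± 0.0526. Eif2b1, Eif2b2 and Eif2b3 differed between the sexes by -0.0316, 0.0234 and -0.00524, each less than its error.

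The eIF2 kinases, which shut down initiation under stress, had 3 clones. Eif2ak3 encodes PERK, the kinase of the endoplasmic reticulum. It measured -0.652 ± 0.195 (SD, n = 10; lowest -0.775, median -0.701, highest -0.106) at 17 to 44 days and -0.764 ± 0.118 (-0.946, -0.757, -0.614) at 169 to 194 days. It measured -0.780 ± 0.115 (-0.933, -0.773, -0.592) at 476 to 499 days and -0.797 ± 0.150 (-1.02, -0.794, -0.584) at 704 to 743 days. The slope was -0.0643 ± 0.0320 array SDs per year (unadjusted p = 0.0504, adjusted p = 0.937, limma). It was -0.0397 without the 17 to 44 day male of replicate 5, which alone set the top of the youngest group, -0.0415 without the mice with outlying arrays and -0.0293 with array weights, and the clone lies in the dimmest 25% of its set. Eif2ak1, the heme-regulated kinase, and Eif2ak4, the kinase that senses uncharged tRNA, had slopes of -0.00399 ± 0.0516 and 0.0110 ± 0.0296.

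The inhibitors and binders of eIF4E were covered by 5 clones of 3 genes, of which 2 had a slope above 0 (median -0.0324 array SDs per year). Eif4enif1 encodes the protein that carries eIF4E into the nucleus and takes part in mRNA silencing. Its spot 5796 measured -0.233 ± 0.278 (SD, n = 10; lowest -0.586, median -0.250, highest 0.301) at 17 to 44 days and -0.219 ± 0.141 (-0.499, -0.196, -0.0544) at 169 to 194 days. It measured -0.346 ± 0.119 (-0.529, -0.348, -0.175) at 476 to 499 days and -0.365 ± 0.170 (-0.749, -0.334, -0.164) at 704 to 743 days. The youngest mice spread more widely than any older group. The slope was -0.0813 ± 0.0390 (unadjusted p = 0.0429, adjusted p = 0.937, limma) and was below 0 in only 2 of 5 rounds, which ran from -0.324 to 0.0655. The step from 169 to 194 to 704 to 743 days was -0.146 ± 0.0846 (unadjusted p = 0.0922, adjusted p = 1.00, limma). Spot 1143 had the slope farthest from 0 of any member, -0.189 ± 0.0999 (unadjusted p = 0.0655), but it is the dimmest member, with the widest residual spread among the members, and spot 6059 gave 0.00886 ± 0.0392.

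Both measured genes of 4E-binding proteins had higher mean values in males, and neither passed the adjusted test. Eif4ebp1 measured -1.20 ± 0.0826 (SD, n = 20; lowest -1.34, median -1.21, highest -1.05) in males and -1.29 ± 0.162 (-1.70, -1.25, -1.09) in females. The difference was 0.0899 ± 0.0444 (unadjusted p = 0.0497, adjusted p = 0.982, limma), above 0 in 5 of 5 rounds and in 15 of 20 pairs of the same age group and round. The ranges overlapped, and the lowest values were all in females. Eif4ebp3 measured -1.41 ± 0.502 (-1.71, -1.49, 0.660) in males and -1.62 ± 0.204 (-2.06, -1.57, -1.34) in females, a difference of 0.204 ± 0.112 (unadjusted p = 0.0775, adjusted p = 0.982, limma) that held in 16 of 20 pairs. It was 0.0958 without the 169 to 194 day male of replicate 2, whose value of 0.660 stood far above every other mouse. Both clones lie in the dimmest 25% of their set.

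**Figure D3:**
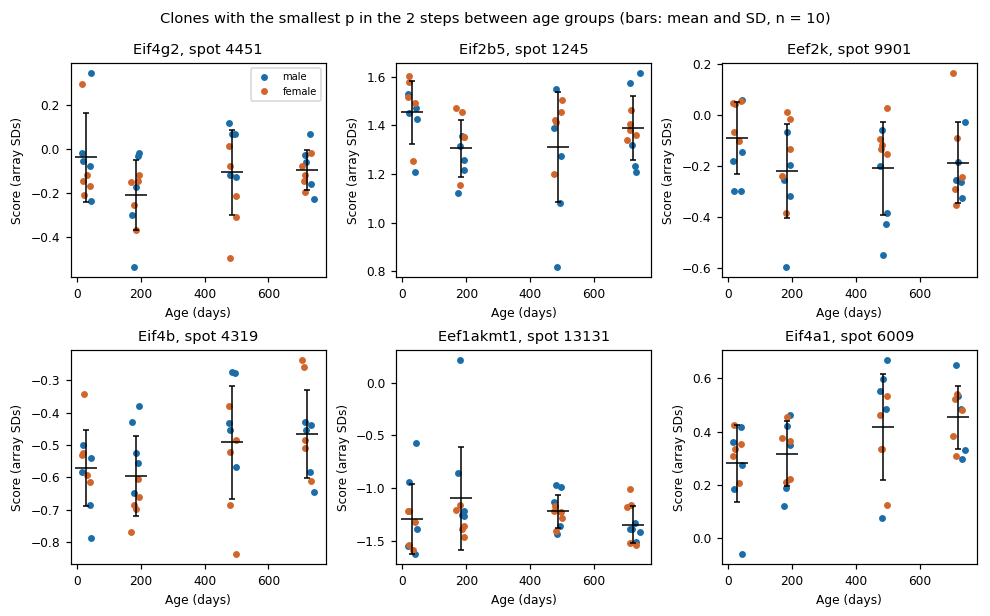
Scores in array SDs against age in days, with 1 point per mouse coloured by sex and the mean and SD of each age group (n = 10), for the 3 clones of smallest unadjusted p in each of the steps between age groups. Eif2b5 goes from 1.45 to 1.31 over the earlier step and Eif4b from -0.595 to -0.465 over the later one, and the groups overlap in each panel.

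Eef2k encodes the kinase that halts elongation by phosphorylating eEF2, and its spot 9901 had the smallest p of any member between the sexes. It measured -0.249 ± 0.164 (SD, n = 20; lowest -0.596, median -0.255, highest 0.0561) in males and -0.104 ± 0.144 (-0.383, -0.0976, 0.164) in females. The ranges overlapped over most of their length. The difference was -0.145 ± 0.0489, with an interval of -0.244 to -0.0460, an unadjusted p of 0.00517 and an adjusted p of 0.982 (limma). Males had the lower mean in all 4 age groups, at -0.174 ± 0.145 against -0.00522 ± 0.0723 (n = 5 each) at 17 to 44 days and -0.286 ± 0.196 against -0.152 ± 0.162 at 169 to 194 days. At 476 to 499 days the means were -0.323 ± 0.193 and -0.0945 ± 0.0705, and at 704 to 743 days -0.211 ± 0.114 and -0.162 ± 0.206. The difference was below 0 in 5 of 5 rounds, from -0.260 to -0.0550, and in 14 of 20 pairs. The other Eef2k clone, spot 1884, differed in the opposite direction by 0.110 ± 0.0919, so the clones of this gene differed in sign. Spot 9901 also differed by -0.129 ± 0.0692 from 17 to 44 to 169 to 194 days (unadjusted p = 0.0688, adjusted p = 0.933, limma), -0.0444 without the mice with outlying arrays and -0.0848 with array weights, against -0.00628 ± 0.130 at spot 1884.

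**Figure D4:**
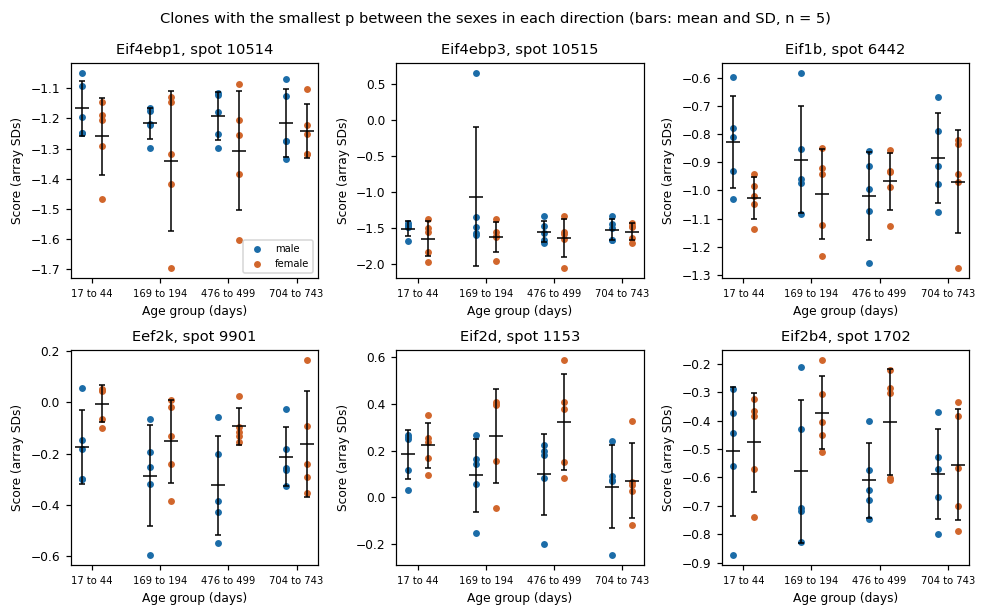
Scores in array SDs of males and females by age group in days, with 1 point per mouse and the mean and SD of each group (n = 5), for the clones with the smallest unadjusted p between the sexes in each direction. Eef2k (spot 9901) is lower on average in males in all 4 age groups, and the points of the sexes overlap.

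Among the elongation factors proper, 9 of 11 clones (3 genes) had a slope above 0 and 9 of 11 were above 0 from 17 to 44 to 169 to 194 days, with medians of 0.0156 array SDs per year and 0.0629 array SDs. None passed, and 7 of the 11 clones were of Eef1g. Eef1b2 encodes the exchange factor that reloads eEF1A with GTP, and its only clone measured 0.326 ± 0.136 (SD, n = 10; lowest 0.0858, median 0.353, highest 0.493) at 17 to 44 days. It measured 0.427 ± 0.146 (0.209, 0.440, 0.583) at 169 to 194 days, 0.412 ± 0.125 (0.120, 0.458, 0.533) at 476 to 499 days and 0.477 ± 0.107 (0.214, 0.481, 0.591) at 704 to 743 days. The youngest group had the lowest median and the oldest the highest, and all 4 overlapped. The slope was 0.0626 ± 0.0288 array SDs per year (unadjusted p = 0.0355, adjusted p = 0.937, limma), above 0 in 5 of 5 rounds. Eef1a1 encodes the factor that brings aminoacyl-tRNA to the ribosome. Its 3 clones had slopes of 0.0156 ± 0.0346, 0.0268 ± 0.0312 and 0.0453 ± 0.0383, all above 0 and none larger than 1.5 times its error. Eef1g encodes the subunit that anchors the exchange factor, and its 7 clones had slopes from -0.0158 to 0.0305, 5 of them above 0.

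Of the enzymes and partners of elongation factors, Eef1akmt1, a lysine methyltransferase of eEF1A, measured -1.10 ± 0.490 (SD, n = 10; lowest -1.47, median -1.24, highest 0.216) at 169 to 194 days and -1.35 ± 0.178 (-1.54, -1.39, -1.01) at 704 to 743 days. The difference of -0.249 ± 0.129 (unadjusted p = 0.0607, adjusted p = 1.00, limma) was -0.112 without the 169 to 194 day male of replicate 4, the highest mouse, -0.0604 without the mice with outlying arrays and -0.164 with array weights. The clone lies in the dimmest 25% of its set. Eef1e1, a small protein of the synthetase complex, had a slope of -0.0110 ± 0.0390.

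The 4 genes named after eIF1 and eIF1A (Eif1a, Eif1ax, Eif1b and Eif1ad) had slopes above 0 in 4 of 9 clones. The factors eIF1 and eIF1A help the ribosome find the start codon, and Eif1 itself was not measured. Eif1b, a close relative of eIF1, measured -0.906 ± 0.170 (SD, n = 20; lowest -1.26, median -0.922, highest -0.582) in males and -0.994 ± 0.128 (-1.28, -0.956, -0.822) in females at spot 6442. The difference was 0.0880 ± 0.0503 (unadjusted p = 0.0880, adjusted p = 0.982, limma) and 0.0528 without the 5 mice of 17 to 21 days. The other Eif1b clone, spot 6462, differed by 0.0916 ± 0.0704. Eif1a, which encodes eIF1A, had 4 clones with slopes of 0.0407 ± 0.0318 (spot 6980), 0.0175 ± 0.0248 (spot 10875), 0.0819 ± 0.0404 (spot 7724, unadjusted p = 0.0487, adjusted p = 0.937, limma) and -0.0195 ± 0.0719 (spot 1857). The Eif1ad clone had one of -0.0365 ± 0.0292. The Eif1ax clones had slopes of 0.000800 ± 0.0280 and -0.0560 ± 0.0450. For the factors of subunit joining and after, Eif5, Eif5a and Eif6, 7 of 7 clones were higher in males (49.2% of all clones were), by 0.0126 to 0.118, with a median of 0.0434. None of these 7 had an unadjusted p under 0.05. Eif5, which triggers GTP hydrolysis on eIF2, supplied 4 of these clones, and their age slopes ran from -0.0589 to 0.0693. Eif5a and the Eif6 clones, for the hypusine-bearing factor and the factor that keeps the subunits apart, had slopes of -0.0268 to -0.00579.

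Clones that carry the symbol of one gene were compared with each other over the 40 mice, and whether they read the same transcript was not tested. The 21 genes with several clones gave 95 pairs. The median Pearson r of such a pair was -0.00190, with a range of -0.778 to 0.846, and 45 of the 95 were above 0. For pairs of clones of different members the median was -0.00259 on one filter set (1989 pairs) and 0.0135 across the sets (2011 pairs), and all of these medians lay close to 0. After the mean of each round was removed, the median over the 95 pairs was 0.0535, with -0.0211 on one set and 0.116 across the sets. The pairs of different members then had medians of 0.00900 on one set and 0.0127 across the sets. In permutation tests with 100000 resamples, two-sided and adjusted over the 95 pairs, 18 pairs passed by Pearson's r, 13 with r above 0 and 5 below, and 14 of the 18 also passed by Spearman's rho. These permutations ran over all mice and so take in any difference between rounds. With round means removed and mice permuted within rounds only, an alternative chosen after seeing the data, 10 pairs passed, 7 with r above 0 and 3 below, and 9 of the 10 were among the 18. Of the 21 genes, the clones of 9 shared the sign of the age slope, of 4 the sign of the step from 17 to 44 to 169 to 194 days, of 6 that of the later step, and of 7 that of the sex difference.

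The closest agreement was among clones of Eef1g. Spots 12261 and 12305 had r = 0.846 (adjusted permutation p = 0.00019) and rho = 0.833 (adjusted permutation p = 0.000475) over 40 mice, with r above 0 in 5 of 5 rounds, 0.769 with round means removed and 0.828 without the 2 mice farthest from the median. Spot 2688, on the other filter set, had r = 0.677 with spot 12305 (rho = 0.669) and 0.667 with spot 12261 (rho = 0.672), each with an adjusted permutation p of 0.00019 for r and of at most 0.00057 for rho. These last pairs were measured in separate hybridisations. Spots 12308 and 16312 of the same gene ran in opposite directions, with r = -0.778 (adjusted permutation p = 0.00019) and rho = -0.698 (0.00057), below 0 in all 5 rounds and -0.718 without the 2 mice farthest from the median. For Eef1a1, spots 10790 and 15701 had r = 0.641 and rho = 0.668 (adjusted permutation p = 0.00019 and 0.00057), with 0.670 after round means were removed. For Eif4a1, spots 4600 and 6009 had r = 0.510 (adjusted permutation p = 0.00836) but rho = 0.220 (adjusted permutation p = 0.390). Over all rounds, r was 0.253 without the 2 mice farthest from the median of spot 4600. With round means removed it was 0.550 over all mice (adjusted p = 0.0316, permuted within rounds), and r was above 0 in 5 of 5 rounds. For Eif4e, spots 6691 and 12552, whose slopes were alike, had r = 0.444 (adjusted permutation p = 0.0456) and rho = 0.311 (adjusted permutation p = 0.174). Here r was 0.115 without the 2 mice farthest from the median of spot 6691. With round means removed it was 0.501 over all mice (adjusted p = 0.035, permuted within rounds), and r was above 0 in 5 of 5 rounds. The Eef2k clones, spots 1884 and 9901, had r = -0.398 (adjusted permutation p = 0.0519) and rho = -0.382 (adjusted permutation p = 0.0727).

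**Figure D5:**
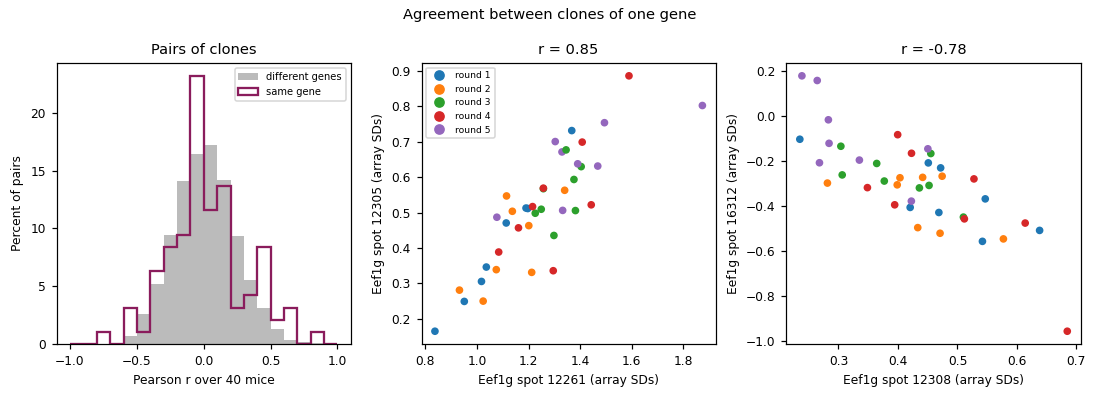
Left, the share in percent of clone pairs by Pearson r over 40 mice, for pairs of one gene (95 pairs) and pairs of different genes. The other panels plot pairs of Eef1g clones against each other in array SDs, 1 point per mouse and coloured by round, with r = 0.846 for spots 12261 and 12305 and r = -0.778 for spots 12308 and 16312.

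The round, a block of serial numbers that the labels do not explain, took a larger part of the variation of these clones than age or sex. For the median member, the round held 18.4% of the sum of squares, against 10.3% of the degrees of freedom, and the same 18.4% was found over all clones. The highest share was 53.6%, at Eif3a spot 10156. The age group held 7.09% (7.69% of the degrees of freedom; 5.55% over all clones) and sex 1.32% (2.56%; 1.25% over all clones). The mean deviation of all 91 clones in a mouse was -0.0112 ± 0.0328 (SD, n = 10), 0.00849 ± 0.0216, -0.000519 ± 0.0308 and 0.00319 ± 0.0261 array SDs from the youngest to the oldest group. It was 0.00548 ± 0.0328 in males and -0.00548 ± 0.0218 in females (n = 20 each). Every one of these group means was smaller than its SD, and the rounds ranged from -0.0118 ± 0.0334 to 0.0242 ± 0.0202 (n = 8 each).

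Genes that work with these factors had 0 clones called at an adjusted p under 0.05 (limma) in any of 6 lists. Over all clones the share was 0% for the age comparisons and 0.107% for sex, and 50.3% of slopes were above 0. An unadjusted p under 0.05 was found for 2.36% (later step) to 5.20% (age slope) of all clones. For the slope, the lists in the order below held 2 of 15, 1 of 13, 1 higher and 1 lower of 26, 1 of 9, 1 of 11 and 1 of 23 such clones. Except for Ern1, the values named from these lists are each of a single clone, and any other clone of that gene is not given. These clones were spots 5787 (Hspa5), 6746 (Paip1), 452 (Gspt1), 1087 (Tufm) and 5041 (Sars). Of the genes that respond to or reverse eIF2 phosphorylation, 9 of 17 were measured by 15 clones, with 4 slopes above 0 and 11 below (median -0.0177 array SDs per year). Hspa5, the main chaperone of the endoplasmic reticulum, had the lowest p there, with a difference of -0.233 ± 0.0805 from 169 to 194 to 704 to 743 days (unadjusted p = 0.00616, adjusted p = 1.00, limma). Both clones of Ern1, another stress sensor of that compartment, were lower in males, by -0.0916 ± 0.0374 and -0.152 ± 0.0678 (unadjusted p = 0.0190 and 0.0307). For mTOR and the regulators of the cap complex, 11 of 19 genes were measured by 13 clones, with 7 slopes above 0. For termination, recycling and poly(A)-binding factors, 15 of 18 genes were measured by 26 clones, with 15 slopes above 0. In that list Paip1, which joins the poly(A)-binding protein to the initiation complex, had a slope of 0.101 ± 0.0367 (unadjusted p = 0.00882), and Gspt1, a release factor, one of -0.0847 ± 0.0374 (unadjusted p = 0.0287).

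For the enzymes that modify elongation factors, 6 of 11 genes were measured by 9 clones, with 5 slopes above 0. For the mitochondrial translation factors, 7 of 12 genes were measured by 11 clones, with 5 slopes above 0. Tufm, the mitochondrial counterpart of eEF1A, had a slope of -0.108 ± 0.0408 (unadjusted p = 0.0112, adjusted p = 0.937, limma) and was lower in males by -0.126 ± 0.0560 (unadjusted p = 0.0301). The cytosolic aminoacyl-tRNA synthetases and their partners, of which Eef1e1 is also a member above, were measured by 23 clones of 20 genes. From 17 to 44 to 169 to 194 days 17 of the 23 were above 0, with a median of 0.0627 array SDs against 0.00220 over all clones, and none passed. Sars, the seryl-tRNA synthetase, had a slope of 0.0925 ± 0.0260 array SDs per year (unadjusted p = 8.94e-04, adjusted p = 0.821, limma).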

How the data were processed

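The deposited values are scores: per the file headers and the values, each of the 80 columns is 1 array, with mean 0 and SD 1, while how images were read, any background correction and the earlier scale are not stated in the sources used here. Per the labels' protocols, tissue was broken up with glass beads, RNA was purified with an RNeasy kit and cDNA was labelled radioactively. None of the columns was left out (0), and no value was missing. For 1 male of 714 days the description names another mouse than the title; the sex and age fields were followed.

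Each set was quantile normalized and fitted with limma 3.58.1 in R 4.3.3 (lmFit, eBayes) over all 8448 clones and 40 mice. Age entered the slope model in years (365 days each) beside sex, and the other comparisons came from the 8 means of sex and age. P-values were adjusted by Benjamini-Hochberg over 16896 clones together, and clones below 0.05 were called. Intervals come from the same fit. Clone pairs were compared in SciPy 1.17.1. The fits were tested on simulated data.

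The members and the lists were chosen with earlier results of these data known. Among the members, the 3 clones of smallest p in each direction were named per comparison (2 for the sex by age test), with the other clones of those genes. Also named were a list of 38 core factors, of which 27 were measured, and some further members, such as Eif3f and Eif3i. From the lists of genes outside the members, the clones named had an unadjusted p under 0.05, but not every such clone was named. One left out was Abce1 (unadjusted p = 0.00562 for 169 to 194 minus 17 to 44 days, limma). All 91 clones matched RefSeq by gene identifier, with 0 changed symbols. The dimmest clones are the lowest 25% of a set by mean score, where 17 members lie. Alternatives were no quantile normalization, a term for the round, array weights, no dim clones, no mice of 17 to 21 days, no mice with outlying arrays, and leaving out each mouse.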

Additional observations from a re-analysis of the deposited data

Results flagged for a closer look

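In 10 of 168 groups of 5 mice, over 21 named clones, the highest or lowest mouse stood apart from the others by more than the critical share of the group's range for 5 samples (0.71). Chance alone flags about 1 in 20 groups, or 8.4 of 168. The males of 169 to 194 days held 3 of them: replicate 2 at 0.660 for Eif4ebp3 (the next mouse at -1.35), and replicate 4 at 0.216 for Eef1akmt1 (next -0.858) and at 0.0704 for Eif3m (next -0.682). The female of 169 to 194 days, replicate 5, was lowest for Eif3m at -1.03 (next -0.764) and highest for Eif4e spot 6691 at 0.867 (next 0.656).

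In the youngest males, replicate 1 was lowest for Eif3b spot 5965 at -0.5535 (next -0.126), replicate 2 lowest for Eif4ebp3 at -1.68 (next -1.49), and replicate 5 highest for Eif2ak3 at -0.1065 (next -0.669). The youngest female of replicate 1 was highest for Eif4g2 spot 4451 at 0.292 (next -0.118). The male of 704 to 743 days, replicate 2, was lowest for Eif4enif1 spot 5796 at -0.749 (next -0.380). Of these mice, the 17 to 44 day males of replicates 1 and 5, the 169 to 194 day male of replicate 4 and the 169 to 194 day female of replicate 5 also had an array of unusually low correlation with the rest of its set.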

How the results depend on the processing

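The count of members called stayed at 0 in all 5 tests under the 46 alternatives, and the 24 named differences kept their direction in each alternative that gave a value. Counts at an unadjusted p under 0.05 moved. The replicate block was a fixed term for the round, since replicate numbers follow the rounds. With it the count for 169 to 194 minus 17 to 44 days was 5 in place of 2. For 704 to 743 minus 169 to 194 days it was 2 in place of 1. The block changed no call of a member. Over all clones, 2 were called with it for the age slope in place of 0, and 19 for sex in place of 18. Same-round arrays had a mean correlation of deviations of 0.145 in set A and 0.197 in set B, with 74 and 94 of 140 pairs above 0.1. With array weights the counts of members at an unadjusted p under 0.05 were 1 for the earlier step and 5 for the later step. They were 8 in place of 4 for sex and 12 in place of 8 for the slope. As deposited, the later step gave 2. Without the mice with outlying arrays the slope gave 4 in place of 8 and the earlier step 1. Leaving out 1 mouse at a time gave 4 to 11 for the slope, 0 to 5 for the earlier step, 0 to 4 for the later step and 1 to 4 for sex. The median slope of the members ran from -0.00121 to 0.00736 over the left-out mice, and that of the later step from -0.00651 to 0.0134, so neither has a settled sign; without the mice with outlying arrays they were -0.00179 and -0.00227. The earlier step's median ran from 0.0119 to 0.0307 and was 0.00584 without the 5 mice of 17 to 21 days. The median for sex ran from 0.00560 to 0.0208 and was 0.000803 without the dimmest 25% of clones, where 17 members lie. Of the pairs of clones of one gene, 10 in place of 18 passed with round means removed and mice permuted within rounds, added after seeing the data.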
